A study of Mus musculus with 14 samples.

Results

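Cd5l encodes CD5 antigen-like, also called apoptosis inhibitor of macrophage (AIM), a secreted protein of macrophages built from scavenger receptor cysteine-rich domains. It was followed here through the 1 array probe that the platform annotation assigns to it, 1 gene of the 8841 named by a probe with a single gene symbol. The measurements came from mouse macrophages drawn from the peritoneum of female C57BL/6 animals aged 6 weeks after an injection of thioglycollate, an irritant that recruits such cells. Each of 7 treatments was measured on 2 one-colour arrays: GW3965, a synthetic agonist of the liver X receptors (LXRs), with lipopolysaccharide (LPS); GW7845, a synthetic agonist of PPARγ, with LPS; LPS alone; GW3965 with poly(I:C); GW7845 with poly(I:C); poly(I:C) alone; and no treatment. LPS is a bacterial ligand of the Toll-like receptor TLR4, and poly(I:C) is a double-stranded RNA analogue recognised by TLR3. The series is described as 2 biological replicates for each condition, and its labels do not say whether a replicate was 1 mouse or a pool, nor give doses or times, so the p-values measure the spread between these preparations. No array held either agonist without a stimulus. In an RNA sample of whole cultures, fewer cells of a type and less RNA per cell cannot be told apart.

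LXRα and LXRβ are nuclear receptors that bind oxysterols and, with the retinoid X receptors as partners, switch on genes for sterol efflux and fatty acid synthesis. In mouse macrophages Cd5l is known as a gene that LXR agonists induce, and its product is known for protecting macrophages from apoptosis. The secreted protein circulates in blood, and in mouse fat cells it is taken up through CD36 and lowers the activity of fatty acid synthase.

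The bases just before the RefSeq start of Cd5l are shown because the gene responded to an agonist of a receptor that binds DNA directly, and they lie at chr3:87357631-87357880 on the plus strand of GRCm38.p6, read from RefSeq. Capitals mark the 1 match to the motifs searched, the receptor core GGTCA at the 3′ end.

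Cd5l promoter: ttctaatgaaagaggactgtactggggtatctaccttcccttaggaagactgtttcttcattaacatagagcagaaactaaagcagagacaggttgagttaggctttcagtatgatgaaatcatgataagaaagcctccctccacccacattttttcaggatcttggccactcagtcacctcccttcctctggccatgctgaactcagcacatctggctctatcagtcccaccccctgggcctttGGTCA

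A direct repeat of AGGTCA with 4 free bases between its copies, the arrangement favoured by LXR paired with its partner, was not found on either strand of these 250 bases. It stood in 5 of 32851 promoters of the same length (0.0152%). A repeat of the core GGTCA with 4 free bases between was not found either, and stood in 15 promoters (0.0457%). The PPARγ-type repeat of AGGTCA with 1 free base between was also not found, and stood in 11 (0.0335%). The core GGTCA began at base -5, counted back from the start, and stood in 35.2% of all promoters searched. A match describes letters in this window and is not a mapped binding site.

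The 14 arrays fell into 2 sets of 7, with 1 array of each treatment in each set. The sets were found from the intensities and are not named in the labels, and since one of them holds replicate 1 in 6 of 7 treatments, the array set and the biological replicate cannot be told apart. In one set, called set A here, the 10th percentile of intensity lay between 0.138 and 0.274, and in the other, set B, between 0.0554 and 0.0842, with the median of each array at 1. Another 29 probes were missing from every set A array and no set B array, and 30 the reverse. Cd5l was higher on the set A array in 7 of 7 treatments, by 0.06 to 0.61 on the log2 scale, so each comparison is given both from the group means and with the array set as a block. The block takes out the shift shared by the arrays of a set, which may include a part of the spread between preparations. The p-values with the block measure only the spread that remains. All intensities below are relative to the array's median, and the lowest Cd5l value, 8.32, was 30.4 times the highest 10th percentile of any array.

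Of 13 macrophage identity genes measured, 12 were above the array median on at least 1 array, all but Fcgr1, with a summed intensity of 3570 to 4470 with GW3965, 3810 to 6880 on the other stimulated arrays and 3425 to 6693 in untreated cells. Of markers of other cells the sums overlapped between GW3965 arrays and the other stimulated arrays for B cells (10 measured, 38.8 to 58.1 with GW3965, 32.3 to 71.0 on the other stimulated arrays and 42.5 to 42.7 in untreated cells), T and NK cells (12), mast cells, basophils and eosinophils (9), dendritic cells (5), mesothelial cells and fibroblasts (9), and erythroid cells and platelets (7). Those of neutrophils did not overlap and are given with the GW3965 results.

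Cd5l was highest in both GW3965 treatments. Its intensity was 63.9 and 57.6 on the arrays of GW3965 with LPS. With GW3965 and poly(I:C) it was 65.3 and 50.2. These 4 arrays lay above the other 10. GW7845 with LPS gave 8.32 and 12.7, and GW7845 with poly(I:C) gave 11.7 and 8.49. LPS alone gave 12.1 and 10.3, and poly(I:C) alone gave 15.5 and 14.9. The 2 arrays of untreated cells read 23.8 and 15.6, between the GW3965 arrays and the rest, the lower of them only just above the higher poly(I:C) array.

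**Figure D1:**
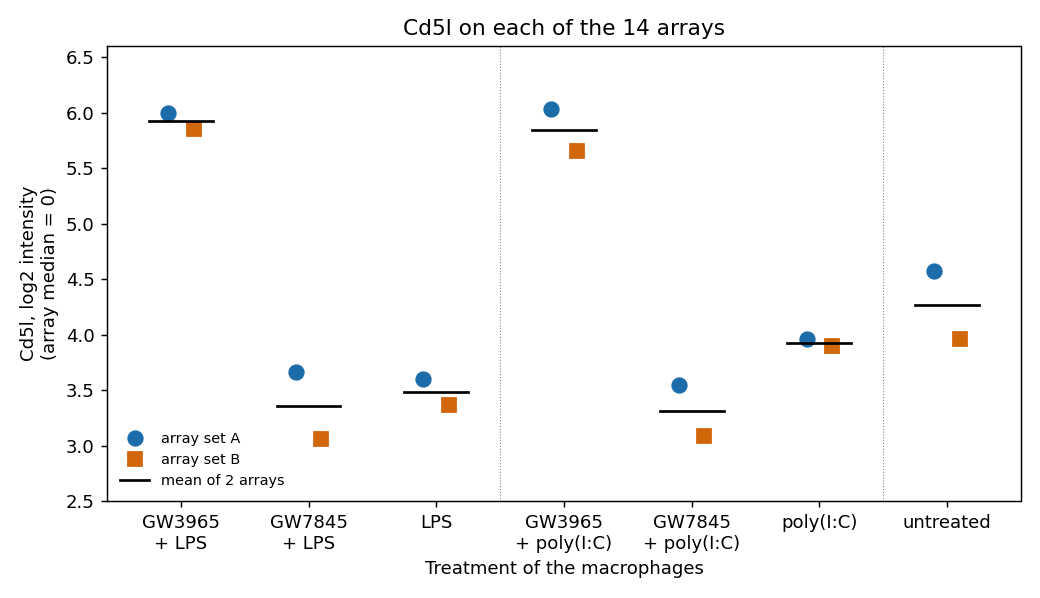
Cd5l on each array as log2 intensity (vertical axis; the median of each array is 0) by treatment (horizontal axis), with circles for array set A, squares for set B and bars for the mean of 2 arrays. Both GW3965 treatments, at means of 5.92 and 5.84, stand above untreated cells at 4.27, and every circle lies above its square.

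On the log2 scale the means ran in the order GW3965 with LPS at 5.92 ± 0.11, GW3965 with poly(I:C) at 5.84 ± 0.27, untreated at 4.27 ± 0.43, poly(I:C) at 3.93 ± 0.04, LPS at 3.48 ± 0.16, GW7845 with LPS at 3.36 ± 0.43 and GW7845 with poly(I:C) at 3.32 ± 0.33 (SD, n = 2 each). The step from the GW3965 treatments down to untreated cells was the only one between neighbours past the threshold of an adjusted p of 0.05 in the limma fit of group means. The 2 GW3965 treatments overlapped and differed by 0.08 (95% interval -0.68 to 0.84). The 2 GW7845 treatments also overlapped and differed by 0.04 (-0.72 to 0.80). Poly(I:C) lay above LPS by 0.44 (-0.32 to 1.21) with no overlap of arrays, and limma gave an adjusted p of 0.9999 from the group means and 0.998 with the array set as a block, with 1 probe of 9584 (0.0104%) and 2 (0.0209%) called.

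With GW3965 in LPS-treated cells Cd5l rose 5.42-fold over LPS alone, and the arrays did not overlap. The log2 difference was 2.44 (SE 0.35, 95% interval 1.68 to 3.20), with an adjusted p of 0.0285 from limma on group means and 0.000345 with the array set as a block. It was 2.40 on set A arrays and 2.48 on set B arrays. Of 9584 probes tested, 3 (0.0313%) were called in this comparison from the group means and 39 (0.407%) with the block. The call from group means was lost in 8 of 14 fits that left out 1 array. Leaving out either LPS array gave adjusted p values of 0.233 and 0.249, and leaving out either GW3965 with LPS array gave 0.51 and 0.118. Leaving out either array of GW7845 with LPS gave 0.0623 and 0.0631, and of GW3965 with poly(I:C) 0.0618 and 0.0623. A fit without an intensity trend in the variance also lost it (0.235). The difference itself stayed between 2.32 and 2.55, and with the array set as a block the call held in 14 of 14 such fits, at an adjusted p of at most 0.0242.

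With GW3965 in poly(I:C)-treated cells Cd5l stood 3.76-fold above poly(I:C) alone, again with no overlap of arrays. The log2 difference was 1.91 (SE 0.35, 1.15 to 2.67), which missed the threshold from group means (limma adjusted p = 0.243) and passed it with the array set as a block (0.0060) and after quantile normalization (2.09, 0.0139). It was 2.07 on set A and 1.75 on set B. In this comparison 1 probe (0.0104%) was called from the group means and 7 (0.073%) with the block. The call with the block was lost without poly(I:C) array 1 (1.74, adjusted p = 0.227), GW3965 with poly(I:C) array 1 (1.90, 0.0603) or array 2 (1.92, 0.091).

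The change under poly(I:C) minus the change under LPS was -0.53 (SE 0.50, -1.60 to 0.55; limma adjusted p = 1.00), so a difference between the stimuli was not detectable at this precision. Averaged over both stimuli, GW3965 raised Cd5l by 2.18 (SE 0.25, 1.64 to 2.71), a 4.52-fold rise with adjusted p values of 0.0029 from group means and 1.7e-05 with the block. Both fits kept this call in 14 of 14 fits that left out 1 array, with differences of 2.08 to 2.27. Of 9584 probes, 19 (0.198%) were called here from group means and 110 (1.15%) with the block, and Cd5l ranked 7 by the size of its rise and 2 by p. An exact two-sided permutation test of the 4 GW3965 arrays against the 8 other stimulated arrays, relabelled within each stimulus, gave p = 0.00444 for a difference of 2.36. That is the smallest p that its 225 relabellings allow.

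The summed intensity of neutrophil markers was lower on the GW3965 arrays than on the other stimulated arrays. Over 9 measured it was 20.8 to 25.4 on GW3965 arrays, 32.9 to 62.1 on the other stimulated arrays and 19.4 to 30.6 in untreated cells. Much of this sum is 1 gene, S100a8. Its mean log2 intensity was 3.98 with GW3965 and LPS and 3.80 with GW3965 and poly(I:C). It was 4.88 to 5.63 in the other stimulated treatments and 4.35 in untreated cells. Ngp, Ltf, Mpo, Elane and Cxcr2, which mark granulocytes and their precursors, were below the array median on every array. Of the 8 that were tested, 4 lay above 0 with GW3965 averaged over both stimuli, and the median difference was -0.11, against -0.04 for all probes. S100a8 and Camp fell with the array set as a block, against 78 of all probes (0.814%), and none fell from group means, against 8 (0.0835%). The part of these cells in the Cd5l result was not tested.

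GW3965 with a stimulus also lifted Cd5l above its level in untreated cells. With LPS it rose by 1.65 (SE 0.35, 0.89 to 2.42), 3.15-fold, with limma adjusted p values of 0.011 from group means and 0.000221 with the block. With poly(I:C) it rose by 1.57 (0.81 to 2.33), 2.97-fold, with adjusted p values of 0.0136 and 0.000329. These contrasts include the response to the stimulus as well as to the agonist, and 581 (6.06%) and 635 (6.63%) of the probes were called in them from group means, and 1580 (16.5%) and 1655 (17.3%) with the block. The group means call with LPS was lost without GW3965 with LPS array 1 (adjusted p = 0.113) or array 2 (0.0616) or untreated array 2 (1.35, 0.0946). The call with poly(I:C) was lost without untreated array 2 (1.26, 0.114) or GW3965 with poly(I:C) array 1 (1.38, 0.163), and with the block neither was lost in any of 14 fits.

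**Figure D2:**
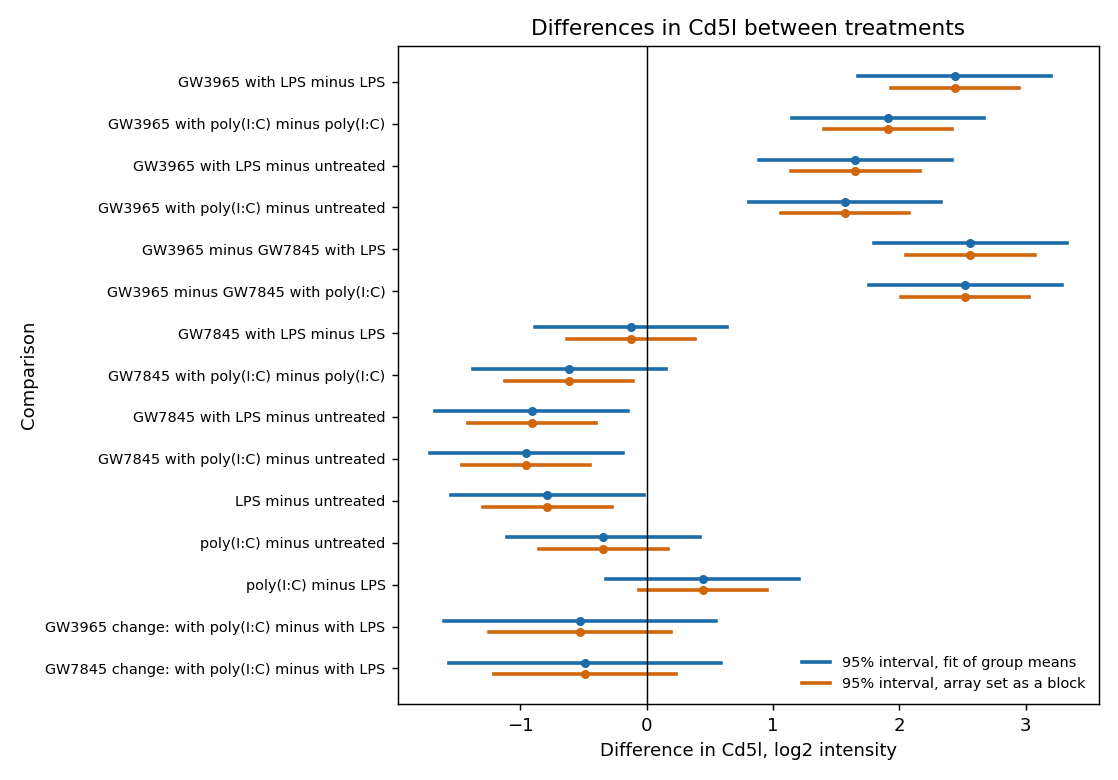
Differences in Cd5l (horizontal axis, log2 intensity) for 15 comparisons (vertical axis), as points with 95% intervals from the fit of group means (blue) and with the array set as a block (orange). The 6 comparisons of a GW3965 treatment with another treatment lie above 0, from 1.57 to 2.56, and the intervals of GW7845 with LPS minus LPS hold 0 in both fits.

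GW7845 gave no such rise. Cd5l was 8.32 and 12.7 with GW7845 and LPS, against 12.1 and 10.3 with LPS alone, and the arrays overlapped. The log2 difference was -0.12 (SE 0.35, -0.89 to 0.64), with limma adjusted p values of 0.9999 from group means and 0.957 with the block. It turned to 0.18 without GW7845 with LPS array 1 and to 0.000683 after quantile normalization, so its sign is not settled. With poly(I:C), GW7845 gave 11.7 and 8.49 and poly(I:C) alone 15.5 and 14.9, with no overlap. That difference was -0.61 (-1.37 to 0.15), with an adjusted p of 0.9998. With the block the interval was -1.12 to -0.10, with an adjusted p of 0.999 and an unadjusted p of 0.0217. From group means it was -0.38 without GW7845 with poly(I:C) array 2. None of 9584 probes was called in either GW7845 comparison by limma from group means or with the block (0%). At an unadjusted p under 0.05 the group means fit counted 138 probes with LPS and 83 with poly(I:C), and the block fit 572 and 362.

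Averaged over both stimuli GW7845 moved Cd5l by -0.37 (SE 0.25, -0.91 to 0.17; limma adjusted p = 0.9999). With the block the interval was -0.73 to -0.01, with an adjusted p of 0.86. From group means the difference ran between -0.52 without GW7845 with LPS array 2 and -0.22 without its array 1. The comparison had 0 probes called from group means (0%; 161 at an unadjusted p under 0.05) and 1 (0.0104%) with the block. An exact two-sided permutation test of its 4 arrays against the 4 stimulus-only arrays, relabelled within each stimulus, gave p = 0.167, where 36 relabellings allow no p below 0.0556. A test of the GW7845 change under poly(I:C) minus that under LPS gave -0.49 (-1.56 to 0.59; adjusted p = 1.00). The upper limit of 0.17 on the pooled GW7845 change lay below the lower limit of 1.64 on the pooled GW3965 change.

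The agonists were also set directly against each other. Under LPS, GW3965 exceeded GW7845 by 2.56 (SE 0.35, 1.80 to 3.33), 5.91-fold, and Cd5l was the 1 probe of 9584 (0.0104%) called from group means (limma adjusted p = 0.0468). With the array set as a block its adjusted p was 0.000207, and 6 probes (0.0626%) were called. Under poly(I:C) the difference was 2.52 (1.76 to 3.29), 5.75-fold, with adjusted p values of 0.0185 and 0.000419, among 4 (0.0417%) and 10 (0.104%) probes called. Over both stimuli it was 2.54 (SE 0.25, 2.00 to 3.08), 5.83-fold, with adjusted p values of 0.000896 and 4e-06, among 10 (0.104%) and 45 (0.47%) probes called. In that pooled comparison Cd5l ranked 1 by p and 2 by the size of the difference. The pooled call held in 14 of 14 fits without 1 array, in both fits.

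The call under LPS from group means was lost in 10 of 14 such fits. Without GW3965 with LPS array 1 the adjusted p was 1.00 and without array 2 it was 0.127. Without GW7845 with LPS array 1 it was 0.807 and without array 2 0.0934. Without an LPS array it was 0.0819 and 0.0833, without a poly(I:C) array 0.0783 and 0.079, and without a GW3965 with poly(I:C) array 0.112 and 0.113. It was also lost without an intensity trend (0.417) and narrowly with the floor at the 1st percentile (0.0506) or with log2(value + 0.5) (0.053). Under poly(I:C) the call was lost without a GW3965 with LPS array (0.0577 and 0.0574), a GW3965 with poly(I:C) array (0.475 and 0.247) or GW7845 with poly(I:C) array 1 (0.096), without an intensity trend (0.159), or in a fit of only the groups compared (0.0852). With the block both calls held in 14 of 14 fits, at an adjusted p of at most 0.0105 and 0.0138.

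The stimuli alone gave smaller differences from untreated cells. Cd5l stood at 12.1 and 10.3 with LPS, against 23.8 and 15.6 in untreated cells, with no overlap. The log2 difference was -0.78 (SE 0.35, -1.55 to -0.02), a 1.72-fold lower level that missed the threshold from group means (limma adjusted p = 0.264) and passed it with the block (0.0333) and after quantile normalization (-0.92, 0.0469). In this comparison 748 probes (7.8%) were called from group means and 1702 (17.8%) with the block. The call with the block was lost without LPS array 1 (-0.71, 0.209) or array 2 (-0.86, 0.123), or untreated array 1 (-0.64, 0.233) or array 2 (-0.93, 0.0641). Poly(I:C) gave 15.5 and 14.9, and its difference from untreated cells was -0.34 (-1.10 to 0.42), with adjusted p values of 0.805 and 0.385 and with 849 (8.86%) and 1790 (18.7%) probes called. From group means this difference was -0.04 without untreated array 1 and -0.65 without array 2, and such fits carry the offset between the array sets. With the array set as a block, leaving out 1 array gave -0.51 to -0.17.

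With GW7845 as well as the stimulus, Cd5l differed from untreated cells by -0.91 under LPS (-1.67 to -0.15) and by -0.95 under poly(I:C) (-1.71 to -0.19). The limma adjusted p values were 0.183 and 0.151 from group means and 0.0167 and 0.0121 with the block; after quantile normalization the one under poly(I:C) also passed (-1.19, 0.0115). In these contrasts 628 (6.55%) of the probes were called from group means under LPS and 723 (7.54%) under poly(I:C), and 1690 (17.6%) and 1593 (16.6%) with the block. The block call under LPS was lost without GW7845 with LPS array 1 (-0.76, 0.124) or untreated array 1 (-0.76, 0.155), and that under poly(I:C) without untreated array 1 (-0.80, 0.122) or GW7845 with poly(I:C) array 2 (-0.89, 0.0749).

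Of a list of known LXR targets, most of them for sterol efflux and lipoprotein handling, 4 of 17 rose with GW3965 averaged over both stimuli from group means, against 11 of all 9584 probes (0.115%). None fell. They were Eepd1, a promoter of sterol efflux (2.61, SE 0.23, limma adjusted p = 0.00019), the sterol exporters Abcg1 (2.34, SE 0.28, 0.0029) and Abca1 (2.31, SE 0.38, 0.0247), and Ptger2, a prostaglandin E2 receptor with another role than the list's name says (1.47, SE 0.26, 0.0455). With the array set as a block 7 of 17 rose, against 32 probes in all (0.334%), adding Tmem86a, Pltp and Lpl. The median difference of the list was 0.45, against -0.04 for all probes tested. This list and the next were chosen with earlier results of these data known, so their counts are not independent support.

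Of the known LXR targets for fatty acid synthesis 3 of 11 rose in both fits and none fell, with a list median of 0.67. They were Scd2, a stearoyl-CoA desaturase (3.83, SE 0.49, limma adjusted p = 0.00454), the fatty acid synthase Fasn (1.89, SE 0.31, 0.0247) and Mid1ip1, which promotes polymerisation of acetyl-CoA carboxylase (1.75, SE 0.29, 0.0247). A second and dimmer Fasn probe moved by 1.35 with an adjusted p of 0.95. Srebf1, which encodes the lipogenic factor SREBP-1, lay at the floor of 0.0686 on both LPS arrays, 1 poly(I:C) array and both untreated arrays, so no difference is given for it. Among these 28 genes and Cd5l, the Cd5l rise ranked 5, after Scd2, Eepd1, Abcg1 and Abca1. With GW7845 no member of either list was called, and the list medians were 0.06 and -0.12, against -0.01 for all probes. Among all probes GW7845 averaged over both stimuli called 0 from group means and 1 (0.0104%) with the block.

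**Figure D3:**
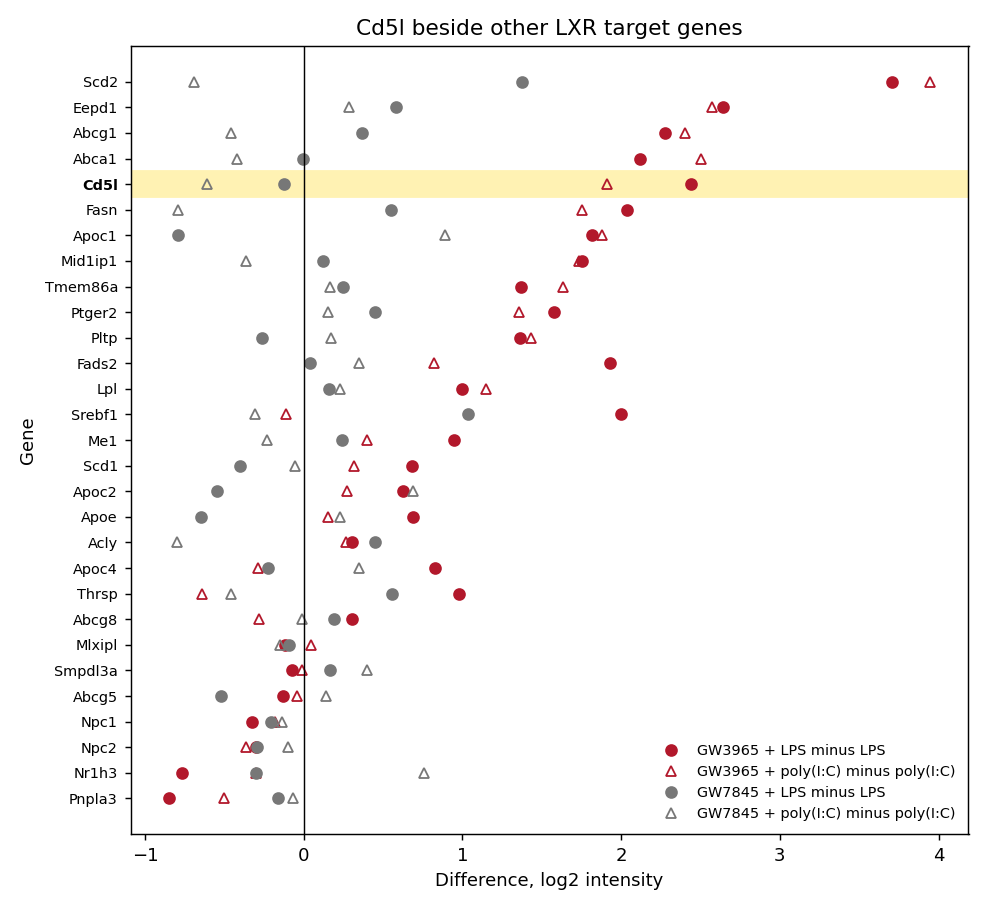
Differences (horizontal axis, log2 intensity) of Cd5l and 28 listed LXR target genes (vertical axis) for GW3965 (red) and GW7845 (grey), with filled circles under LPS and open triangles under poly(I:C). Cd5l, in the shaded line, has 2.44 and 1.91 with GW3965 and -0.12 and -0.61 with GW7845; Nr1h3 rests on set A arrays alone, and Srebf1 was at the floor on 7 of 14 arrays.

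Abcg1 showed the pattern array by array. Its intensity was 51.2 and 40.7 with GW3965 and LPS and 64.0 and 59.4 with GW3965 and poly(I:C), against 8.67 and 10.2 with LPS, 11.1 and 12.2 with poly(I:C), and 14.0 and 17.9 in untreated cells. As for Cd5l, the GW3965 arrays lay above all others. Eepd1 also had its GW3965 arrays above all others, but the untreated arrays came close to them. It read 15.9 and 16.3 with GW3965 and LPS, and 12.7 and 15.3 with GW3965 and poly(I:C). LPS gave 2.64 and 2.52, poly(I:C) gave 1.99 and 2.76, and untreated cells gave 10.9 and 12.5. Eepd1 fell with LPS (-2.18 against untreated cells, limma adjusted p = 0.000522), and with GW3965 and LPS it differed from untreated cells by 0.46 (0.555). Whether Cd5l and Eepd1 differ in this respect was not tested.

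The array labelled GW7845 with poly(I:C) 1 was below every other stimulated array for 4 of 6 named lipid genes. It read 5.48 for Abcg1, 1.68 for Fasn, 0.413 for Scd2 and 5.95 for Cd36, while its Cd5l of 11.7 lay within the range of the other GW7845 arrays, 8.32 to 12.7. Leaving this array out moved the Cd5l difference between the agonists under poly(I:C) to 2.75, whose call from group means was lost (limma adjusted p = 0.096), and the pooled difference between the agonists to 2.66 (0.00194). It moved the GW7845 change under poly(I:C) to -0.84 and the pooled GW7845 change to -0.48, neither of them called.

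The 10 genes whose levels followed Cd5l most closely were ranked by Pearson r over the 14 arrays, after centring each gene within each array set, among 4615 probes with group means spanning at least 1 on the log2 scale. They were Abcg1 (r = 0.94), Mid1ip1 (0.92), Fasn (0.89), the lipoprotein lipase gene Lpl (0.89), Eepd1 (0.86), the lactosylceramide synthase gene B4galt6 (0.85), Scd2 (0.85), the phospholipid transfer protein gene Pltp (0.82), the organic anion exporter gene Abcc3 (0.80) and Cyb5r1 (0.77), of a family of cytochrome b reductases. These values describe 14 arrays that share treatments and array sets, and they carry no p. Of these genes 7 stood in the LXR lists, which hold 17 and 11 of the 8841 genes measured. The share of list members among the 4615 probes was not counted. With GW3965 averaged over stimuli, Lpl moved by 1.07, Pltp by 1.40, Abcc3 by 1.70 and Cyb5r1 by 1.05, and all 4 were called with the array set as a block (limma adjusted p = 0.0108, 0.0308, 0.0352 and 0.0117) and not from group means (0.294, 0.19, 0.201 and 0.126). B4galt6 moved by 0.44 and was called in neither fit. These genes were picked for likeness to Cd5l on the same arrays, so neither their calls nor their number in the LXR lists is independent of that choice. Of all probes, 32 (0.334%) rose with the block and 11 (0.115%) from group means.

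The 5 genes most opposed to Cd5l were Mcemp1, a membrane protein gene of myeloid and mast cells (r = -0.87), S100a8, a calprotectin subunit (-0.85), the ETS factor gene Elk3 (-0.83), the endocytic adaptor gene Dab2 (-0.82) and Kdr, which encodes a receptor for VEGF (-0.82). Kdr fell by 1.51 with GW3965 averaged over stimuli and was called in both fits (limma adjusted p = 0.0182 and 0.000789). S100a8 (-1.07), Mcemp1 (-1.24) and Dab2 (-0.89) were called with the block only (0.0478, 0.0249 and 0.0264). Elk3 moved by -0.54 and was not called. These 5 genes were also picked on the same arrays, so their calls are not independent of that choice. Of all probes, 78 (0.814%) fell with the block and 8 (0.0835%) from group means.

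**Figure D4:**
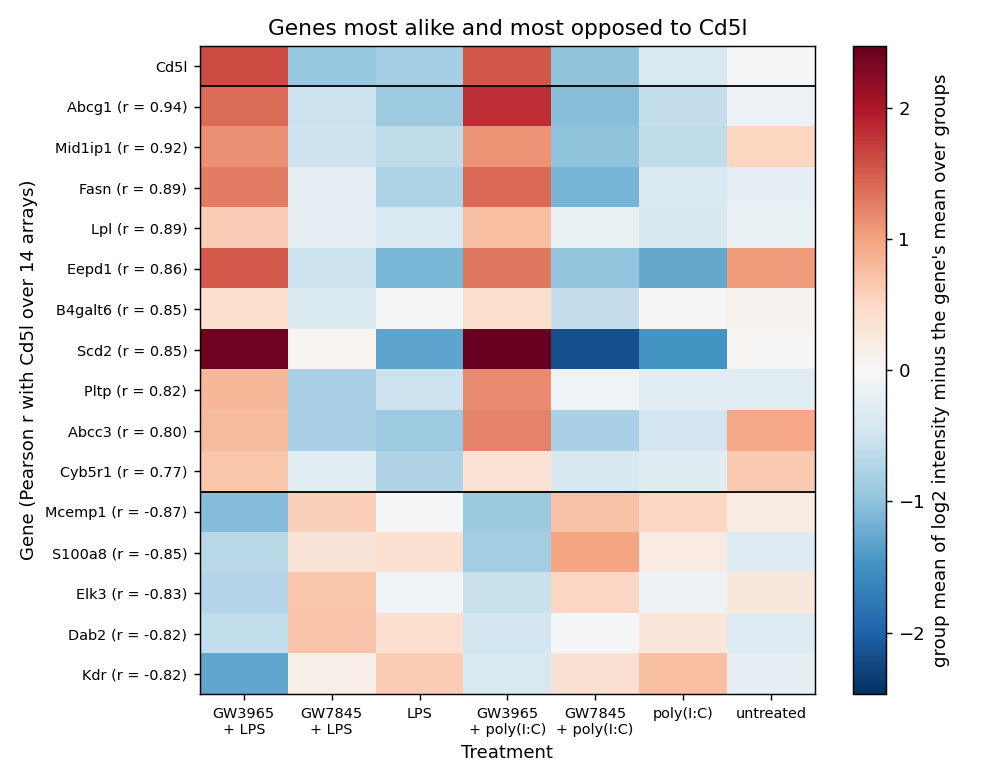
Group means (columns, by treatment) of Cd5l and the genes most alike and most opposed to it (each line a gene, with its Pearson r over 14 arrays), as log2 intensity minus the gene's mean over groups (colour scale). Abcg1, Mid1ip1 and Fasn are high in both GW3965 treatments as Cd5l is, and Eepd1, Mid1ip1, Abcc3 and Cyb5r1 are also high in untreated cells.

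Of 15 genes tested for nuclear receptors and their partners, none was called with GW3965 in either fit. With GW3965 averaged over both stimuli, 19 of all probes (0.198%) were called from group means and 110 (1.15%) with the block. A list this short would thus hold few calls or none. Nr1h2, the gene of LXRβ, was not measured. Nr1h3, the gene of LXRα, was measured on set A arrays only: 8.96 with GW3965 and LPS and 10.4 with GW3965 and poly(I:C), against 15.2 with LPS, 12.8 with poly(I:C) and 8.90 in untreated cells. Pparg, the receptor of GW7845, read 2.57 and 2.44 with GW3965 and LPS, 1.03 and 1.11 with GW7845 and LPS, and 1.03 and 1.34 with LPS. It read 3.80 and 1.78 with GW3965 and poly(I:C), 1.72 and 1.33 with GW7845 and poly(I:C), and 1.28 and 1.41 with poly(I:C). Untreated cells gave 19.7 and 22.2. The GW3965 arrays thus lay above the other stimulated arrays and below the untreated ones. Averaged over LPS and poly(I:C), Pparg fell by 4.06 with stimulation (SE 0.34, limma adjusted p = 1.56e-06), in a comparison with 1096 probes called from group means (11.4%) and 2194 with the block (22.9%). Of 16 known macrophage targets of PPARγ none was called with GW7845 in either fit, with a median of 0.25 against -0.01 for all probes. Among all probes GW7845 averaged over both stimuli called 0 from group means and 1 (0.0104%) with the block. Cd36 read 41.1 on set A and 70.0 on set B with GW7845 and LPS, against 14.6 and 32.5 with LPS. With GW7845 and poly(I:C) it read 5.95 on set A and 74.1 on set B, against 13.3 and 34.9 with poly(I:C). The 5.95 is from the array labelled GW7845 with poly(I:C) 1, described above. Whether GW7845 acted on PPARγ in these cultures was not tested.

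Of 14 other scavenger receptors and proteins with the same kind of domain, none was called with GW3965 in either fit, 4 lay above 0, and the median was -0.16 against -0.04 for all probes. Among all probes 19 (0.198%) were called from group means and 110 (1.15%) with the block. Cd163, a haemoglobin scavenger of the same domain family, read 0.649 and 0.292 with GW3965 and LPS and 1.02 and 1.04 with GW3965 and poly(I:C), against 1.20 and 1.03 with LPS, 1.55 and 0.545 with poly(I:C) and 0.835 and 0.427 in untreated cells, close to or below the array median of 1. Msr1, scavenger receptor A, moved by -0.31 with GW3965 and was raised by stimulation (1.30, SE 0.30, limma adjusted p = 0.0109). Cd36, a fatty acid transporter and the known uptake receptor for the Cd5l protein in mouse fat cells, moved by 0.65 (SE 0.69) with GW3965. Cd36 read higher on the set B array than on the set A array in every treatment, with 8.39 on set A and 47.9 on set B in untreated cells. The SE of 0.69 is from group means and includes this offset. Of 20 genes typical of tissue-resident macrophages none was called with GW3965 from group means, and with the block 1 of 20 fell, against 78 of all probes (0.814%): Siglec1, the gene of sialoadhesin, by 1.96 (limma adjusted p = 0.0070).

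Among regulators of apoptosis, the process that the Cd5l protein is known to restrain, 0 of 27 genes tested were called with GW3965 in either fit, 11 lay above 0, and the median was -0.16. With GW3965 averaged over both stimuli, 19 of all probes (0.198%) were called from group means and 110 (1.15%) with the block. Bcl2, the anti-apoptotic founder of its family, moved by 0.44, Birc3, an inhibitor of apoptosis, by 0.35, Cflar, an inhibitor of caspase-8, by -0.16 and Fas, a death receptor, by -0.23. With the stimuli alone, LPS raised 4 of 27 (limma, group means), against 499 of all probes (5.21%), and lowered Bcl2, against 249 (2.6%). Averaged over both stimuli, 6 of 27 rose and 2 fell from group means, against 682 (7.12%) and 414 (4.32%) of all probes. Cflar rose by 4.25 (SE 0.29, limma adjusted p = 1.86e-07), Birc3 by 2.86 (3.77e-05), Fas by 2.49 (0.000153) and Casp1, an inflammatory caspase, by 2.23 (0.000408), and Bcl2 fell by 1.57 (0.00292). None of 16 autophagy genes and none of 17 genes for the uptake of dead cells was called with GW3965 in either fit. At shares of 0.198% and 1.15% of all probes, lists of this length would hold few calls or none.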

How the data were processed

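RNA of the 14 macrophage cultures was labelled with biotin and hybridised to one-colour arrays, per the labels' protocols. The deposited values are probe intensities on a linear scale, and each array's median is 1, as found in the values; at most 0.421% of an array's values lie at or below 0, and neither image software nor background correction was stated in any source used here. No column was left without a sample (0). The members, gene lists and tests were chosen with earlier results of these data known, and the rise of Cd5l with GW3965 was among them, so it is not independent support.

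Values below the 5th percentile of the table (0.0686) were raised to it, log2 was taken, and probes above their own array's 20th percentile on at least 2 arrays were kept (9584 of 10012). Of all probes 8983 have 1 gene symbol, 1 has several and 1028 have none; 8975 symbols matched RefSeq by Entrez identifier. limma 3.58.1 in R 4.3.3 (lmFit, contrasts, eBayes with an intensity trend) was fitted to all 7 groups, with Benjamini-Hochberg adjustment over all probes within each of 21 comparisons and a threshold of 0.05. The precision is limited by 2 arrays a group, with 7 residual degrees of freedom, or 6 with the array set as a block.

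The array sets were found from the deposited intensities and are not named in the labels. Same-numbered replicates deviated together with correlations of -0.54 to 0.67 (8 of 14 arrays closest to their own number), and arrays of one set with 0.35 to 0.67 (14 of 14). Set A holds replicate 1 in 6 of 7 groups, and replicate 2 for GW7845 with LPS. Same-numbered arrays from different sets therefore always include an array of GW7845 with LPS. Whether the replicate numbers pair the samples was not tested. Genes named were Cd5l, the 10 most alike and 5 most opposed probes, list members called with an agonist, up to 4 further members a list, and a few receptors and targets; a gene with several probes is given by the brightest. Alternatives were another floor, a pseudocount, 2 other filters, quantile normalization and 75th percentile scaling, no intensity trend, only the groups compared, both blocks, and leaving out each array. The fits were tested on simulated data. A result that rests on an item withheld for evaluation is not reported here.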

Additional observations from a re-analysis of the deposited data

How the results depend on the processing

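Precision was limited by 2 arrays a group: the SE of a pairwise Cd5l difference (log2) was 0.35 from group means and 0.24 with the array set as a block. Quantile normalization moved array medians by -0.29 to 0.32 and 75th percentile scaling by -0.17 to 0.16. The rises with GW3965 averaged over both stimuli and over untreated cells, and the pooled difference between agonists, kept their call under every alternative that kept all arrays.

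Under LPS the difference between agonists lost its call with the floor at the 1st percentile (2.56, adjusted p = 0.0506), with log2(value + 0.5) (2.51, 0.053) and with no intensity trend (2.56, 0.417). Without the trend GW3965 with LPS (2.44, 0.235) and the agonists under poly(I:C) (2.52, 0.159) also lost it, the comparison under poly(I:C) in a fit of only the groups compared too (2.52, 0.0852). Quantile normalization added calls for GW3965 with poly(I:C) (2.09, 0.0139), LPS (-0.92, 0.0469) and GW7845 with poly(I:C) against untreated cells (-1.19, 0.0115) and the stimuli mean (-0.75, 0.046), and turned GW7845 with LPS to 0.000683. The array set as a block added GW3965 with poly(I:C) (1.91), LPS (-0.78), GW7845 with LPS (-0.91) and GW7845 with poly(I:C) (-0.95), the last 3 against untreated cells. The cause of these changes was not tested.

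Leaving out each array gave ranges, over fits with and without the array set as a block (the fits with the block were chosen after seeing the data), of 2.32 to 2.56 for GW3965 with LPS, 1.72 to 2.10 for GW3965 with poly(I:C), -0.43 to 0.18 for GW7845 with LPS (0.02 with the block, without GW7845 with LPS array 1), 2.26 to 2.87 and 2.29 to 2.75 between the agonists under LPS and under poly(I:C). Against untreated cells they gave -1.09 to -0.48 for LPS, -0.65 to -0.04 for poly(I:C) from group means, 1.35 to 1.96 and 1.26 to 1.88 for GW3965 with LPS and with poly(I:C), and -1.22 to -0.60 and -1.26 to -0.65 for GW7845 with LPS and with poly(I:C).

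The count of probes called for GW3965 with LPS was 3, and 11 with log2(value + 0.5), 10 after quantile normalization, 7 after 75th percentile scaling, 0 without the trend, 61 in a fit of only the groups compared, 39 with the array set as a block and 0 to 107 leaving out an array. For GW3965 with poly(I:C) it was 1, and 3, 0, 4, 7 and 0 to 13 under quantile normalization, no trend, only the groups, the array set and leaving out an array. For the agonists under LPS it was 1, and 0 with the lower floor, with log2(value + 0.5) or without the trend, 2 with the filter at the median, 50, 6 and 0 to 48 under only the groups, the array set and leaving out an array. Under poly(I:C) it was 4, and 0, 2, 10 and 0 to 98 for no trend, only the groups, the array set and leaving out an array. GW3965 over both stimuli called 19, and 3, 110 and 3 to 227 for no trend, the array set and leaving out an array. LPS called 748, and 410, 1702 and 467 to 1801 for only the groups, the array set and leaving out an array; poly(I:C) called 849, and 457, 1790 and 540 to 1882. Poly(I:C) against LPS called 1, and 2 with the array set and 1 to 5 leaving out an array. GW7845 called 0 under LPS, and 3 in a fit of only the groups and 0 to 3 leaving out an array; 0 under poly(I:C), and 0 to 99 leaving out an array; and 0 over both stimuli, and 1 with the array set and 0 to 65 leaving out an array.

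The replicate number as a block differs from the array set for GW7845 with LPS only, and with it no Cd5l call changed. GW3965 with LPS gave 2.44 (limma adjusted p = 0.00441) and GW3965 with poly(I:C) 1.91 (0.0786). The counts were 13 for GW3965 with LPS, 3 with poly(I:C), 4 and 8 between the agonists, 2 for poly(I:C) against LPS and 35 for GW3965 over both stimuli. Of 14 arrays, 8 were closest to the array of their own number.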

Other observations

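Genes near Cd5l on mouse chromosome 3 were looked at after the Cd5l values had been seen, with the gene order taken from RefSeq GRCm38.p6. Of the 6 protein-coding genes on either side, Lrba, Cd1d1, Fcrls and Etv3 were tested. Their differences with GW3965 averaged over both stimuli were -0.13, -0.36, -0.32 and -0.09, and none was called by limma, with adjusted p values of 0.999 for each from group means and of 0.862, 0.532, 0.639 and 0.935 with the array set as a block. Mab21l2 was measured and did not pass the filter on dim probes. Fcrls, the nearest measured neighbour and a Fc receptor-like gene of macrophages and microglia, had a mean log2 intensity of -0.93, below the array median.

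Other lipid genes were also set against untreated cells, in the fit of group means. Of all probes, 581 (6.06%) were called there with GW3965 and LPS and 635 (6.63%) with GW3965 and poly(I:C). With GW3965 and LPS, Abcg1 was above untreated cells by 1.53 (limma adjusted p = 0.0335), and Scd2 (2.37, 0.062), Fasn (1.48, 0.0672), Mid1ip1 (0.58, 0.558), Eepd1 (0.46, 0.555), Abcc3 (-0.18, 0.913) and Cyb5r1 (0.05, 0.961) were not called. With the array set as a block Scd2 (0.0205) and Fasn (0.0209) were called there too, among 1580 probes (16.5%). With GW3965 and poly(I:C), Abcg1 was above untreated cells by 1.96 (limma adjusted p = 0.00646), Scd2 by 2.45 (0.0492) and Fasn by 1.59 (0.0438). Mid1ip1 (0.57, 0.597), Eepd1 (0.26, 0.882), Abcc3 (0.27, 0.958) and Cyb5r1 (-0.28, 0.854) were not called in that comparison. Abca1 read 2.17 and 2.45 with GW3965 and LPS and 3.94 and 2.65 with GW3965 and poly(I:C), against 0.140 and 0.204 in untreated cells. LPS alone gave 0.336 and 0.838, and poly(I:C) alone 0.482 and 0.674. Of the LXR lists, 2 of 17 and 1 of 11 were called higher with GW3965 and LPS from group means. With GW3965 and poly(I:C) 2 of 17 and 3 of 11 were higher and 1 of 17 lower. The genes given here are not all the members of these lists. The difference between these genes was not tested.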
